A study of Mus musculus with 48 samples.

Results

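The acute phase proteins described here were 10 plasma proteins whose genes are Saa1, Saa2, Saa3, Saa4, Orm1, Orm2, Orm3, Lcn2, Hp and Apcs. A gene was taken as the probeset whose symbol in the platform annotation was that of the gene. Each of the 10 genes had 1 such probeset, and 0 of these probesets carried a second symbol. They were 10 of 19938 genes that had a probeset of their own on the array. The values came from the livers of 48 male mice killed at an age of 16 to 18 weeks, with 1 array for each mouse. Mice were wild type (WT, Wfs1 +/+), heterozygous (HZ, Wfs1 +/-) or homozygous mutant (KO, Wfs1 -/-) for Wfs1, the gene of wolframin, which sits in the membrane of the endoplasmic reticulum. Mice of each genotype were injected daily into the peritoneum with valproic acid (VPA, an anticonvulsant and mood stabilizer) at 300 mg/kg or with saline at 10 mL/kg, from an age of 4 to 6 weeks and for 12 weeks. This gave the 6 groups WT saline, WT VPA, HZ saline, HZ VPA, KO saline and KO VPA, with 8 mice in each. All mice, saline mice included, received glucose at 2 g/kg 24 hours after the last injection and were killed 24 hours after that, so that 48 hours separated the last dose of VPA from the liver sample. In the mutant allele only exons 7 and 8 of Wfs1 were disabled, in all cells of the mouse, and the strain background is not given in the sources used here.

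The acute phase response is the change of liver secretion that follows infection, tissue injury and other inflammatory stress. Interleukin-6, acting through the transcription factor STAT3, and interleukin-1 and tumour necrosis factor, acting through NF-kappaB, drive it in hepatocytes together with C/EBP factors and glucocorticoids. In the mouse, serum amyloid A and serum amyloid P component are classical acute phase proteins whose plasma levels can rise steeply, and haptoglobin and orosomucoid are abundant in plasma at rest and rise further.

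The arrays were closely alike. After normalization the median log2 value of an array lay between 6.90 and 7.03, the lowest correlation between any pair of arrays was 0.971, and 0 pairs were identical. Wfs1 itself lay between 7.94 and 8.98 in all 48 mice and differed between KO and WT mice by -0.15 (SE 0.07, adjusted p = 0.320 from limma). Its probeset is a summary over the gene and not over the disabled exons, so these values do not check the genotype labels. The paper states that an exon specific analysis found lower expression of the disabled exons in KO mice, without showing the data. It also reports from quantitative PCR that the level of this gene depended on genotype. Neither result was examined here. The livers were strongly positive for hepatocyte genes, with group means between 12.31 and 14.45 on the log2 scale for the 7 genes listed.

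The 4 Saa genes lie together on chromosome 7 of GRCm38.p6, from 46711998 to 46754313, within 42.3 kb. The 3 Orm genes lie on chromosome 4 from 63344556 to 63365877, within 21.3 kb. Lcn2, Hp and Apcs lie alone on chromosomes 2, 8 and 1. RefSeq lists Saa2 among the synonyms of Saa1 and Saa1 among those of Saa2, so these names have been exchanged between sources and are used here as the array annotation gives them. Saa1 and Saa2 are close copies of each other, and how far probes of one also bind RNA of the other was not tested. RefSeq promoters of 300 bases (250 before the transcription start and 50 after it) were matched for 8 of the 10 genes. The promoters of Saa1 and Saa2 were identical at 287 of 301 aligned positions (95.3%), and those of Orm2 and Orm3 at 264 of 305 (86.6%).

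The promoters of Saa1, Saa2, Lcn2 and Orm2 are shown because these 4 genes had the widest ranges over the 48 mice, as described below. They are written 5′ to 3′ on the strand of the gene. Capitals mark matches on either strand to the C/EBP motif TTGCNNAA and the NF-kappaB motif, GGG and CC with any 5 bases between them, which do not overlap each other here. The windows in RefSeq GRCm38.p6 are chr7:46742931-46743230 (minus strand) for Saa1, chr7:46751583-46751882 (plus strand) for Saa2, chr2:32387690-32387989 (minus strand) for Lcn2 and chr4:63362199-63362498 (plus strand) for Orm2.
Saa1: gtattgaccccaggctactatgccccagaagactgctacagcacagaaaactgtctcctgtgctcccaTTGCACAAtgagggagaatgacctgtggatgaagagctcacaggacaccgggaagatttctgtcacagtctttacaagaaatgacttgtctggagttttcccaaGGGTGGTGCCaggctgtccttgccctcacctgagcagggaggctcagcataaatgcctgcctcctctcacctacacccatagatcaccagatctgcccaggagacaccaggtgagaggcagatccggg
Saa2: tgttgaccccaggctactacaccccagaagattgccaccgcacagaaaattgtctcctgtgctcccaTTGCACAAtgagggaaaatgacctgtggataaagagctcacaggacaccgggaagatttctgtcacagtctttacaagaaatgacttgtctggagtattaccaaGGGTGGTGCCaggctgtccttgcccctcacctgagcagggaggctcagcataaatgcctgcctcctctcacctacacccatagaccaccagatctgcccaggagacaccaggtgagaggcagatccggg
Lcn2: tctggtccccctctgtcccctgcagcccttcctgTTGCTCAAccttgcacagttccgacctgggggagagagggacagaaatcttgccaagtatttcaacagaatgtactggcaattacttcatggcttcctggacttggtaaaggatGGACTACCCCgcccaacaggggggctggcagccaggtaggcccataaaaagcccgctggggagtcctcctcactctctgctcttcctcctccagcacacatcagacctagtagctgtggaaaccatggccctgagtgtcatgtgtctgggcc
Orm2: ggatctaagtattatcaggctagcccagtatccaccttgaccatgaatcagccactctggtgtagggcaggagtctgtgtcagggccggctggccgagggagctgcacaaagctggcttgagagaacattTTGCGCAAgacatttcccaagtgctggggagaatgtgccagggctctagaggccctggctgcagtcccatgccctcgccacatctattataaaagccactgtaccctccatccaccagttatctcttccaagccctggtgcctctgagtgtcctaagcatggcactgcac
The C/EBP letters were found in 7 of the 8 member promoters, all except that of Apcs, and in 10.8% of all 32851 promoters of this length. The match began 182 bases before the start in Saa1, 183 in Saa2, 216 in Lcn2, 120 in Orm2, 121 in Orm3 and 99 in Saa3, and Saa4 held 2 matches. The NF-kappaB letters were found in 4 of the 8, those of Saa1, Saa2, Saa4 and Lcn2, and in 50.8% of all promoters, so that the letters alone are common. The STAT letters TTCNNNGAA were in 1 of the 8, the promoter of Apcs, and in 8.30% of all promoters. The glucocorticoid receptor letters, GNACA and TGTNC with any 3 bases between them, were in 0 of the 8 and in 0.475% of all promoters. The promoters of Saa1 and Saa2, and those of Orm2 and Orm3, are near copies that are counted separately here. The 8 promoters are therefore not independent of each other. A match is a run of letters and was not tested as a binding site.

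Saa1 and Saa2 encode the main inducible serum amyloid A proteins, which bind high density lipoprotein. In saline mice Saa1 had a lowest, median and highest log2 value of 5.23, 6.22 and 7.37 in WT, of 6.61, 8.10 and 11.91 in HZ and of 5.16, 5.64 and 6.37 in KO mice (n = 8 each). The HZ mice were high, with 7 of 8 above every WT mouse, and all 8 KO mice lay below all 8 HZ mice. In VPA mice these values were 5.32, 6.45 and 9.78 in WT, 5.41, 6.94 and 10.25 in HZ and 5.18, 5.88 and 6.76 in KO mice. There the groups overlapped, and no KO mouse was above 6.76. Saa2 in saline mice had a lowest, median and highest value of 7.26, 8.32 and 9.77 in WT, of 8.90, 10.01 and 13.41 in HZ and of 6.53, 7.85 and 9.09 in KO mice. In VPA mice the values of Saa2 were 7.21, 8.73 and 12.51 in WT, 8.11, 9.43 and 12.21 in HZ and 6.74, 7.99 and 8.76 in KO mice. The order of the groups by their mean was alike for both genes, with HZ saline first, HZ VPA next and WT VPA after it, WT saline in place 4 and the KO groups last.

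Lcn2 encodes lipocalin 2, which binds bacterial siderophores and so withholds iron from microbes, and Orm2 encodes an orosomucoid, a plasma carrier of drugs and lipids. Lcn2 in saline mice had a lowest, median and highest value of 7.76, 8.60 and 9.38 in WT, of 9.00, 10.25 and 12.46 in HZ and of 7.61, 8.55 and 9.49 in KO mice. In VPA mice they were 7.63, 9.42 and 11.92 in WT, 8.17, 9.81 and 11.70 in HZ and 8.39, 9.03 and 9.67 in KO mice. As for Saa1, 7 of 8 HZ saline mice lay above every WT saline mouse, while the VPA groups overlapped widely. Orm2 in saline mice ran through 8.64, 9.23 and 9.99 in WT, 9.50, 10.12 and 12.02 in HZ and 8.18, 9.21 and 10.01 in KO mice, again given as lowest, median and highest. In VPA mice Orm2 ran through 9.26, 10.02 and 11.27 in WT, 8.88, 10.18 and 11.91 in HZ and 8.82, 9.50 and 11.86 in KO mice. Here too 7 of 8 HZ saline mice were above every WT saline mouse, but a KO VPA mouse reached the level of the highest HZ mice.

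**Figure D1:**
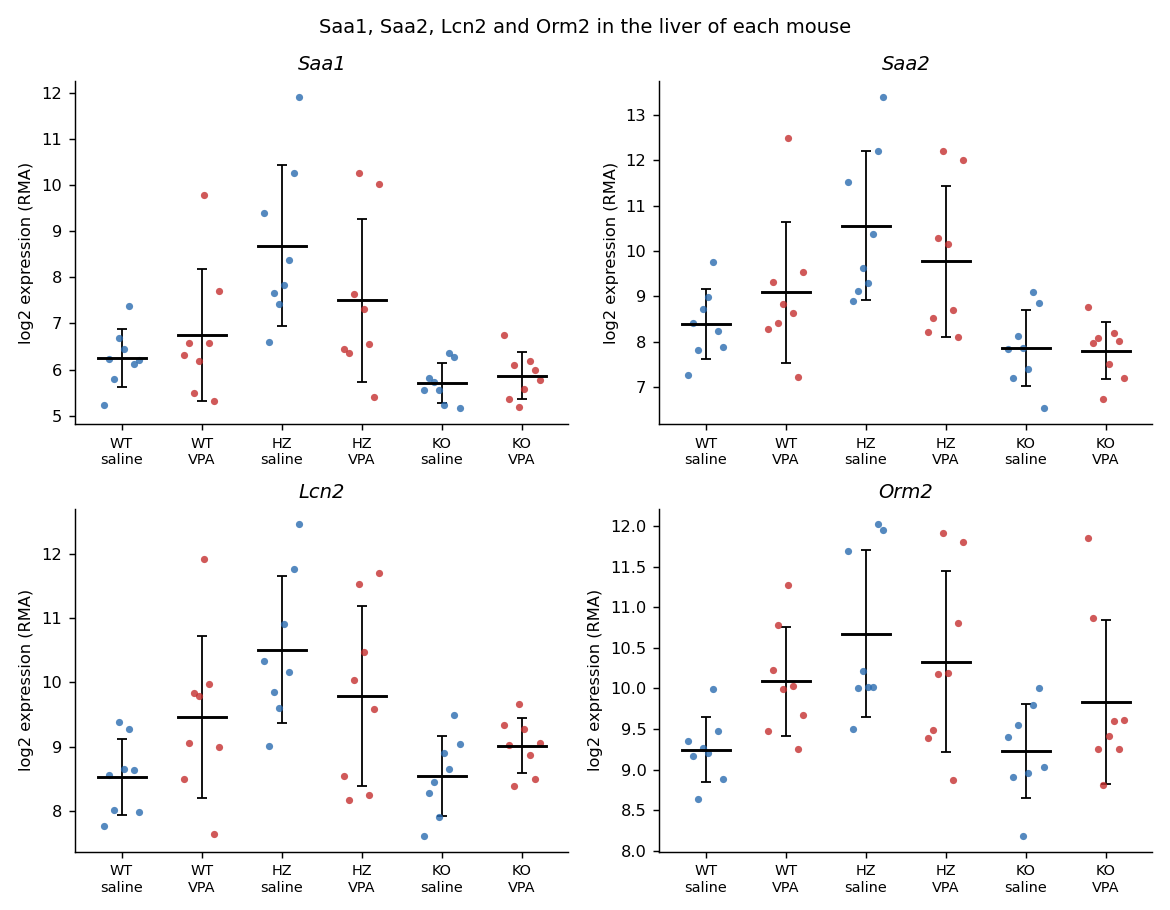
Log2 expression (RMA, vertical axes) of Saa1, Saa2, Lcn2 and Orm2 in each mouse of the 6 groups (horizontal axes), with saline mice in blue and VPA mice in red. Points are mice, horizontal lines are group means and error bars are the SD of 8 mice. For Saa1 all 8 KO saline mice lie below all 8 HZ saline mice, and the spread is wide in HZ mice.

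The other 6 genes varied less. Hp encodes haptoglobin, which captures free haemoglobin, and its median was 13.15 in WT saline, 13.41 in HZ saline and 13.11 in KO saline mice, with a range of 1.13 over all 48 mice. Saa4, a constitutive apolipoprotein of high density lipoprotein, had medians of 12.74, 12.87 and 12.45 in the same groups and a range of 1.13. The range of Orm1, the second orosomucoid, was 0.730, with every mouse between 12.94 and 13.67. Saa3 is also made by macrophages and adipocytes. Its group means lay between 7.34 in KO VPA and 7.93 in HZ VPA mice, and its range was 2.08. Orm3 had group means between 7.02 in WT saline and 7.65 in HZ saline mice and a range of 2.23. Apcs encodes serum amyloid P component, a pentraxin, and its means lay between 10.87 in WT saline and 11.73 in HZ VPA mice, with a range of 2.88. Against these, the ranges were 6.75 for Saa1, 6.88 for Saa2, 4.86 for Lcn2 and 3.84 for Orm2.

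**Figure D2:**
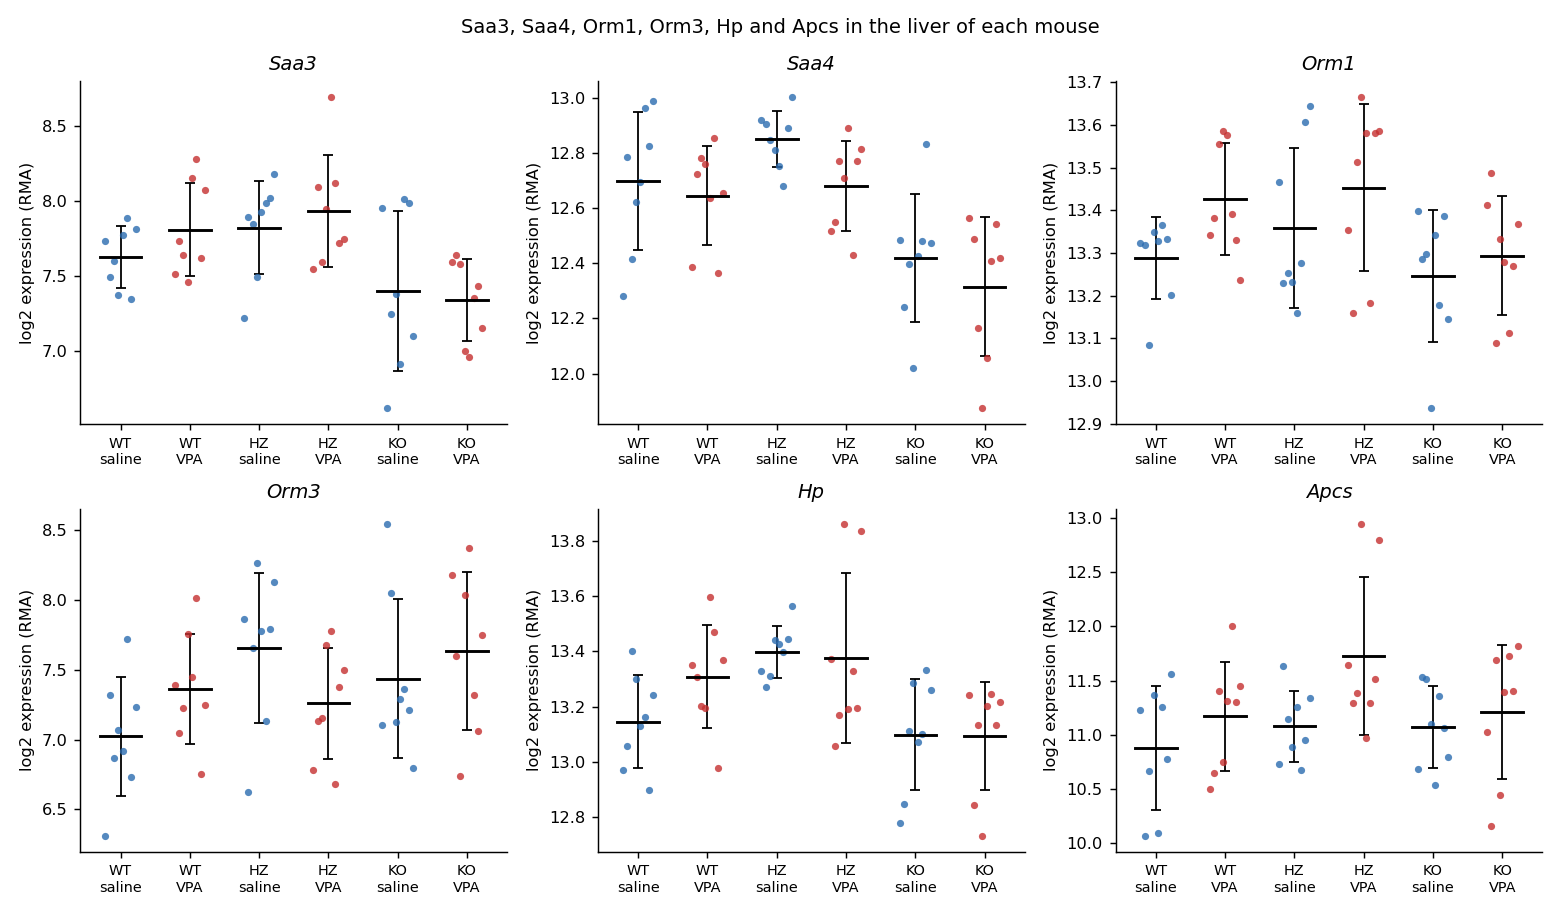
Log2 expression (RMA, vertical axes, each panel with its own scale) of Saa3, Saa4, Orm1, Orm3, Hp and Apcs in each mouse of the 6 groups (horizontal axes), saline in blue and VPA in red. Points are mice, lines are group means and error bars are the SD of 8 mice. Saa4 and Hp have their lowest means in the KO groups, but the mean of Hp in KO saline mice, 13.098, is close to that in WT saline mice, 13.145. Apcs reaches 12.94 in 1 HZ VPA mouse.

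KO mice were then compared with HZ mice, which asks whether a second mutant allele goes with a further difference. In saline mice all 10 genes had a negative difference, and 4 fell at an adjusted p under 0.05 from limma, against 246 of all 35556 probesets that fell (0.692%). Saa1 fell by 2.97 on the log2 scale (SE 0.59, adjusted p = 0.0025), which is 7.83-fold. Saa2 fell by 2.70 (SE 0.61, adjusted p = 0.00969), 6.48-fold. Lcn2 fell by 1.97 (SE 0.47, adjusted p = 0.0178), 3.92-fold, and 7 of 8 HZ mice lay above every KO mouse. Saa4 fell by 0.43, much less (SE 0.10, adjusted p = 0.0138), 1.35-fold, with 7 of 8 KO mice below every HZ mouse. Orm2 at -1.45 (SE 0.41, adjusted p = 0.0568), Hp at -0.30 (SE 0.10, adjusted p = 0.136) and Saa3 at -0.42 (SE 0.17, adjusted p = 0.267) did not pass. Orm3 at -0.22, Orm1 at -0.11 and Apcs at -0.01 had adjusted p of 0.771, 0.603 and 0.996. The median difference of the 10 genes was -0.43, against -0.01 for all probesets.

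The KO and HZ saline mice did not overlap for 1 of the 10 genes, Saa1, and for 0.245% of all probesets. Its two-sided exact permutation test over all 12870 splits of the 16 mice gave p = 0.000155, the smallest these splits allow, and p = 0.0014 when adjusted over the 9 pairs of groups compared for each gene. By the same exact test, adjusted in the same way, Saa2 (p = 0.0028), Lcn2 (p = 0.0028), Saa4 (p = 0.00559), Orm2 (p = 0.00839) and Hp (p = 0.0105) also passed in this comparison. That made 6 of the 10 genes with Saa1, against 4.32% of all probesets by the same test. These values are not adjusted over the other probesets of the array.

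HZ mice were compared with WT mice to ask what a single mutant allele goes with. In saline mice all 10 differences were positive, and 1 gene, Lcn2, rose at an adjusted p under 0.05, against 44 probesets of the array that rose (0.124%). The difference of Lcn2 was 1.98 (SE 0.47, adjusted p = 0.0457), which is 3.95-fold. Saa1 differed more, by 2.42 (SE 0.59), but its adjusted p of 0.05 was not under the threshold. For Saa2 the difference was 2.17 (SE 0.61, adjusted p = 0.117), and for Orm2 it was 1.43 (SE 0.41, adjusted p = 0.124). Orm3 at 0.63 (adjusted p = 0.303) and Hp at 0.25 (adjusted p = 0.339) did not pass, and Apcs, Saa3, Saa4 and Orm1 lay between 0.07 and 0.20. The unadjusted p was under 0.05 for 6 of the 10 genes and for 10.7% of all probesets, and the median difference was 0.44, against 0.02 for all probesets. By the exact permutation test adjusted over 9 comparisons, Saa1 (p = 0.0028), Orm2 (p = 0.0028), Lcn2 (p = 0.0028), Hp (p = 0.0105) and Saa2 (p = 0.0112) were higher in HZ saline mice, 5 of the 10 genes against 3.91% of all probesets. This comparison and the one before it share the 8 HZ saline mice, so a high value in these mice enters both.

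Between KO and WT saline mice the signs were mixed, with 3 positive and 7 negative differences. The difference of Lcn2 was 0.01 (95% interval -0.94 to 0.96), that of Orm2 was -0.02 (95% interval -0.83 to 0.80) and that of Saa1 was -0.55 (95% interval -1.74 to 0.64). In saline mice 0 of the 10 genes passed limma between KO and WT (0.790% of all probesets did), and 1, Saa4, had an unadjusted p under 0.05 (9.25% of all probesets). Orm3 differed by 0.41 (95% interval -0.06 to 0.89), more than between KO and HZ saline mice, and 7 of 8 KO mice lay above its WT mean. Saa2 differed by -0.52 (95% interval -1.75 to 0.70). Saa4 differed by -0.28 (adjusted p = 0.255), with 7 of 8 KO mice below its WT mean. By the exact permutation test adjusted over 9 comparisons, 0 of the 10 passed in this pair, and 2.43% of all probesets did. With 8 mice a group, differences anywhere within these intervals remain possible. The intervals rest on an estimate of the spread of each gene that all 6 groups share. For Saa1 the SD was 0.63 in WT saline and 0.44 in KO saline mice, against 1.74 in HZ saline mice.

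**Figure D3:**
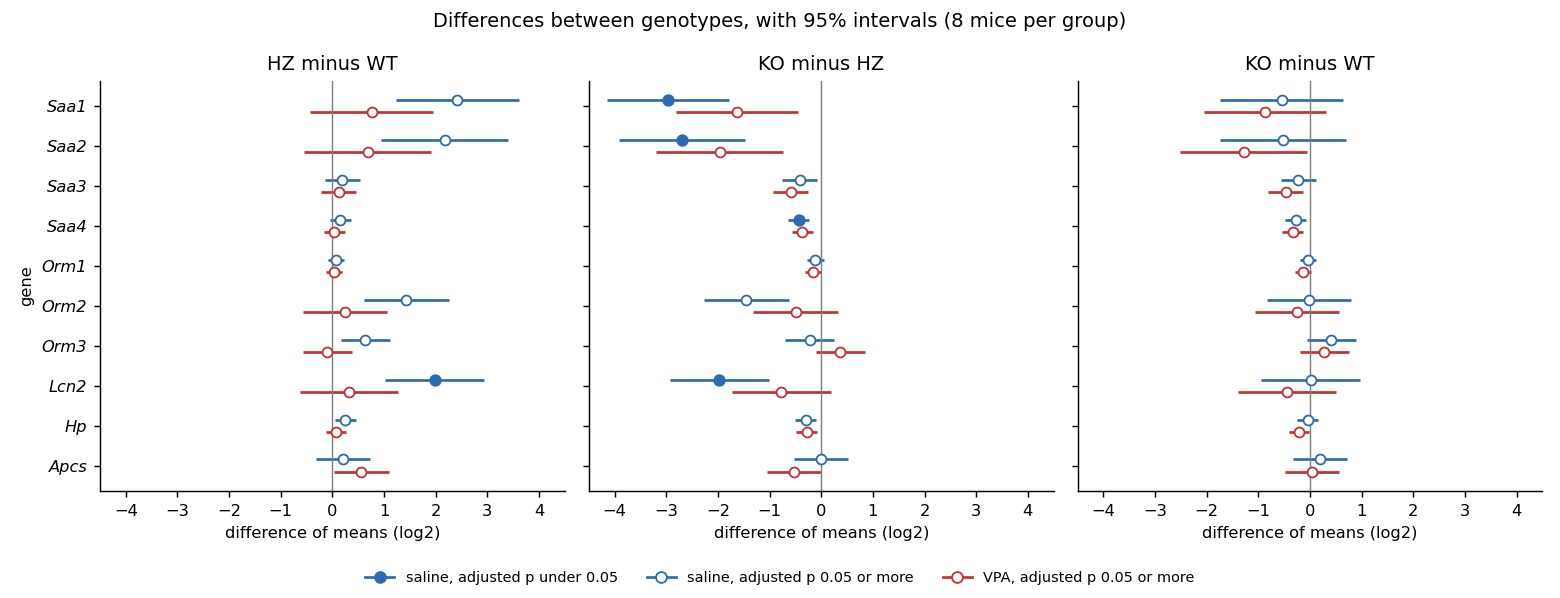
Difference of group means on the log2 scale (horizontal axes) for the 10 genes (vertical axis), HZ minus WT, KO minus HZ and KO minus WT, within saline mice (blue) and within VPA mice (red). Lines are 95% intervals from limma and filled points have an adjusted p under 0.05. In saline mice Saa1, Saa2, Lcn2 and Orm2 lie far to the right in HZ minus WT and far to the left in KO minus HZ, while their saline points in KO minus WT lie nearer to 0.

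Within VPA mice 0 of the 10 genes passed limma in any of the 3 genotype comparisons, in which 0.298% (KO against HZ), 0.405% (KO against WT) and 0.00281% (HZ against WT) of all probesets did. The unadjusted p was under 0.05 for 6 genes between KO and HZ (8.91% of all probesets), for 4 between KO and WT (7.91%) and for 1 between HZ and WT (2.88%). Saa2 differed by -1.97 (SE 0.61, adjusted p = 0.195) between KO and HZ VPA mice, and Saa1 by -1.63 (SE 0.59, adjusted p = 0.334). The exact permutation test adjusted over 9 comparisons passed for 4 genes between KO and HZ VPA mice (2.92% of all probesets), namely Saa2 (p = 0.0121), Saa3 (p = 0.0126), Saa4 (p = 0.0154) and Saa1 (p = 0.0387). Between KO and WT VPA mice the exact test passed for 2 genes (2.44% of all probesets), Saa4 (p = 0.0256) and Saa3 (p = 0.0287). HZ and WT VPA mice differed by 0.76 for Saa1 (95% interval -0.43 to 1.94) and by 0.32 for Lcn2 (95% interval -0.63 to 1.28).

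Over both treatments, 1 of the 10 genes fell in KO against WT mice, as did 1.57% of all probesets. Saa4 had a mean of 12.67 in the 16 WT and of 12.37 in the 16 KO mice, a difference of -0.30 (SE 0.07, adjusted p = 0.0082 from limma). The difference was -0.28 within saline and -0.33 within VPA mice, and 7 of 8 KO saline and 8 of 8 KO VPA mice lay below the WT mean of their treatment. Saa3 at -0.35 (SE 0.12, adjusted p = 0.118), Saa2 at -0.90 (SE 0.43, adjusted p = 0.332) and Orm3 at 0.34 (SE 0.17, adjusted p = 0.348) did not pass. HZ against WT over both treatments gave 10 positive differences and 0 calls (0.00281% of all probesets). The unadjusted p was under 0.05 for 6 of these 10 (5.4% of all probesets), and the differences ran up to 1.59 for Saa1 (adjusted p = 0.382). KO against HZ over both treatments, a comparison added after the data were seen, gave 6 genes that fell (0.779% of all probesets). They were Saa1 at -2.30 (adjusted p = 0.000815), Saa2 at -2.33 (adjusted p = 0.00102), Lcn2 at -1.37 (adjusted p = 0.0192), Saa3 at -0.51 (adjusted p = 0.0152), Saa4 at -0.40 (adjusted p = 0.000668) and Hp at -0.29 (adjusted p = 0.0182).

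VPA was compared with saline to ask whether long treatment goes with a different level of these genes. As the mean over the 3 genotypes, 0 of the 10 genes passed limma, and 8.61% of all probesets did. A count of 0 among 10 genes is near that share. Apcs at 0.36 (SE 0.15, adjusted p = 0.118) and Orm1 at 0.09 (SE 0.04, adjusted p = 0.177) had an unadjusted p under 0.05, as did 26.1% of all probesets. For Saa1 the difference was -0.18 (95% interval -0.87 to 0.50), for Lcn2 it was 0.23 (95% interval -0.32 to 0.78), and for Hp it was 0.05 (95% interval -0.07 to 0.16).

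Within genotypes the signs of the VPA differences were unlike. In WT mice 9 of 10 were positive, with Lcn2 at 0.93 (SE 0.47, adjusted p = 0.917) and Orm2 at 0.84 (SE 0.41, adjusted p = 0.886). All 8 WT VPA mice lay above the WT saline mean of Orm2, and the exact permutation test adjusted over 9 comparisons gave p = 0.0196, the only one of the 10 genes to pass it, against 1.45% of all probesets. In HZ mice 7 of 10 were negative, with Saa1 at -1.18 (SE 0.59, adjusted p = 0.173) and Lcn2 at -0.72 (SE 0.47, adjusted p = 0.307), while Apcs was at 0.65 (SE 0.26, adjusted p = 0.0915). In KO mice 6 were positive and 4 negative. The calls of limma within WT, HZ and KO mice numbered 0 of 10 genes each, against 0.0703%, 10.5% and 0.0112% of all probesets. The test of the difference itself, the interaction of genotype and treatment, also called 0 of the 10 genes (0.0816% of all probesets). Its unadjusted p was under 0.05 for 1 of the 10, Lcn2, and for 7.89% of all probesets (F = 3.26, unadjusted p = 0.0474, adjusted p = 0.624 from limma).

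Within groups, the genes varied together from mouse to mouse. After each group's mean was subtracted, 43 of the 45 pairs of genes had a positive Pearson correlation over the 48 mice, and 27 had an adjusted p under 0.05 from 100000 permutations within groups, adjusted over the 45 pairs. The highest was that of Saa1 with Saa2, r = 0.950 (Spearman rho 0.922, p = 1e-05 for both, the smallest these permutations give, and r = 0.930 without the 2 mice farthest from the median). Lcn2 followed Saa2 with r = 0.772 (rho 0.608, permutation p = 1e-05 and p = 0.00013, adjusted p = 5.62e-05 and p = 0.0007, r = 0.686 without 2 mice). Orm2 followed Saa2 with r = 0.750 (rho 0.695, permutation p = 1e-05 for both, adjusted p = 5.62e-05 and p = 0.000112, r = 0.726 without 2 mice). Orm1 followed its neighbour Orm2 with r = 0.776 (rho 0.816, permutation p = 1e-05 for both, adjusted p = 5.62e-05 and p = 0.000112, r = 0.766 without 2 mice) although its whole range was below 1. The same counts were not made for pairs of other probesets, so those of the 45 pairs have no background beside them.

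The relation of Saa2 to Lcn2 was not alike in all groups. Within groups of 8 mice, Pearson's r between them was 0.867 in WT saline, 0.855 in WT VPA, 0.854 in HZ saline and 0.912 in HZ VPA mice, but 0.120 in KO saline and -0.425 in KO VPA mice. Whether these correlations differ was not tested, and the KO mice span a narrow range of Saa2. For Saa2 and Orm2 r was positive in all 6 groups, from 0.628 in KO saline to 0.937 in HZ saline mice.

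**Figure D4:**
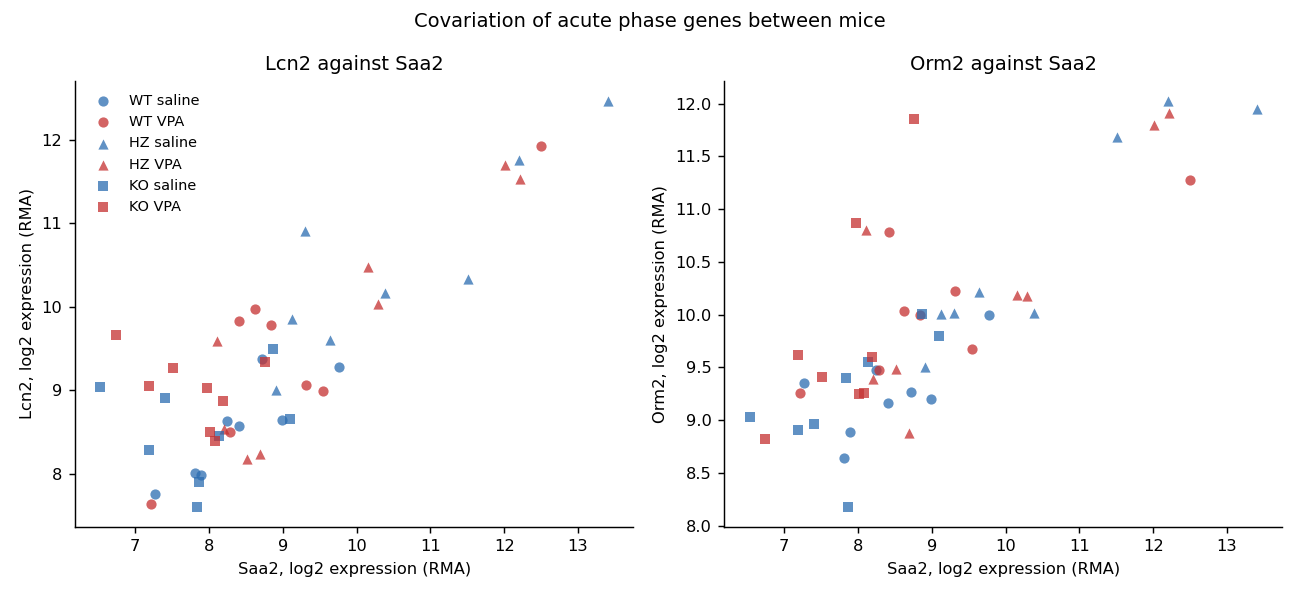
Lcn2 (left) and Orm2 (right) against Saa2, all in log2 expression (RMA), with a point for each of 48 mice. Shapes give the genotype (circle WT, triangle HZ, square KO), blue is saline and red is VPA. The mice with Saa2 above 12 are HZ mice of both treatments and 1 WT VPA mouse, and all of them also have high Lcn2 and Orm2.

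The same few mice carried the highest values of several genes. In the HZ saline group, replicates 7 and 8 held both top places for each of Saa1, Saa2, Lcn2 and Orm2. Replicate 8 had Saa2 at 13.41 and Lcn2 at 12.46, and replicate 7 had Saa2 at 12.20 and Lcn2 at 11.76. In the HZ VPA group replicates 4 and 8 held both top places for the same 4 genes, with Saa2 at 12.21 and 12.01 and Apcs at 12.94 and 12.80. The SD of Saa1 was 1.74 in HZ saline and 1.76 in HZ VPA mice, against 0.44 in KO saline and 0.50 in KO VPA mice. The difference between these spreads was not tested.

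The groups also differed in an index of clock phase, which was formed from 12 measured genes of the circadian clock, signed by their phase, as a difference of mean z scores. Its mean was -2.30 in HZ saline mice, the lowest of the 6 groups, against -0.35 in WT saline, -1.26 in KO saline, 2.24 in WT VPA, 1.92 in HZ VPA and -0.24 in KO VPA mice. With the index as a covariate, Saa1 still fell in KO against HZ saline mice (-2.57, adjusted p = 0.0298 from limma). Saa2 (-2.37, adjusted p = 0.0713), Saa4 (-0.36, adjusted p = 0.104) and Lcn2 (-1.60, adjusted p = 0.138) no longer passed. Between HZ and WT saline mice Lcn2 was then at 1.29 (adjusted p = 0.965) and Saa1 at 1.67 (adjusted p = 0.962). Saa4 in KO against WT mice was at -0.41 and still passed (adjusted p = 0.0429). The part of clock phase in these differences was not tested.

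**Figure D5:**
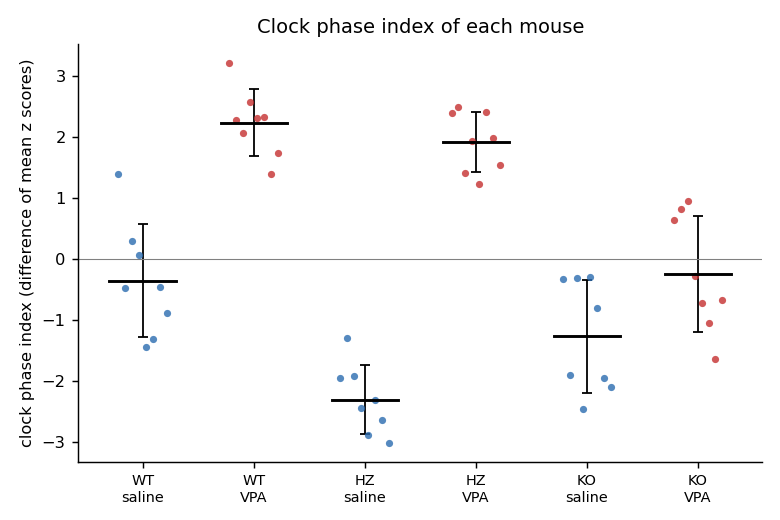
Clock phase index (vertical axis, difference of mean z scores of listed clock genes) of each mouse by group (horizontal axis), saline in blue and VPA in red. Lines are group means and error bars are the SD of 8 mice. HZ saline mice have the lowest mean, -2.30, and all WT VPA and HZ VPA mice lie above 1.

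Markers of other cells were read beside these results, since bulk liver cannot tell fewer cells of a type from less RNA for each cell. Of 13 neutrophil markers 0 passed between HZ and WT saline mice, where 0.304% of all probesets did. Between KO and HZ saline mice 0 passed as well, against 1.39% of all probesets. Their summed level, on the log2 scale, ran from 9.59 to 9.84 in WT saline, from 9.68 to 9.86 in HZ saline and from 9.70 to 9.86 in KO saline mice, with all 3 groups overlapping. Neutrophils also store Lcn2 in their granules. Group means of single neutrophil markers lay between 4.57 and 6.96 on the log2 scale, where the array medians lay between 6.90 and 7.03. The part of neutrophils in the result for Lcn2 was not tested. Of 12 markers of Kupffer cells, the resident macrophages of the liver, 0 passed either comparison, against the same shares of all probesets. Yet all 12 had a negative difference between HZ and WT saline mice (median -0.40). All 12 had a positive one between KO and HZ saline mice (median 0.33). Their summed level ran from 11.87 to 13.18 in WT saline, from 11.95 to 12.94 in HZ saline and from 12.29 to 13.27 in KO saline mice. The part of Kupffer cells in the results was not tested.

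Of 18 further positive acute phase genes measured, 0 passed between HZ and WT saline mice (12 positive, median 0.08). Between KO and HZ saline mice 0 passed too (12 positive, median 0.06). These comparisons called 0.304% and 1.39% of all probesets, so 0 of 18 is near both shares. The differences between HZ and WT saline mice were widest for the metallothioneins, zinc binding proteins, at 1.76 for Mt2 (adjusted p = 0.168) and 1.23 for Mt1 (adjusted p = 0.157), against 1.98 for Lcn2 and 1.43 for Orm2. Fgl1 was at 0.48 (adjusted p = 0.390), Lrg1, a secreted glycoprotein, at 0.28 (adjusted p = 0.667), Serpina3n, an antiproteinase, at 0.17 (adjusted p = 0.410) and Crp, the C-reactive protein, at 0.03 (adjusted p = 0.915). Among those not positive, Fga had a mean of 11.72 in HZ against 11.86 in WT saline mice, and Cd14 of 6.23 against 6.42. In KO against HZ mice over both treatments 1 of the 18, Lrg1, fell, by 0.57 (adjusted p = 0.0472), as 6 of the 10 members did. In KO against WT mice over both treatments 2 of the 18 rose, Mt1 by 1.46 (adjusted p = 0.000358) and Mt2 by 1.88 (adjusted p = 0.0019), as did 1.37% of all probesets. With VPA, as the mean over genotypes, 4 of the 18 rose, as did 4.01% of all probesets. These were the fibrinogen chain genes Fga by 0.32 and Fgg by 0.10, Itih3, an inhibitor chain that binds hyaluronan, by 0.19 and Cp, ceruloplasmin, by 0.09. Each rose most in HZ mice. The KO means, saline then VPA, were 11.83 and 12.05 for Fga and 13.86 and 13.86 for Fgg. They were 12.69 and 12.70 for Itih3 and 13.13 and 13.16 for Cp. In HZ mice the means were 11.72 and 12.23, 13.77 and 13.99, 12.54 and 12.93, and 13.08 and 13.26. The interaction called none of these 4 genes (adjusted p from 0.269 to 0.566 from limma).

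The genes that drive or carry the response were read in the same way, with the shares of all probesets as the background. In KO against HZ saline mice 0.703% of all probesets rose. Of 12 cytokines and cytokine receptors measured, 1 rose there, the interleukin-22 receptor chain Il22ra1, by 0.94 (adjusted p = 0.00893). Of 9 genes of the glucocorticoid receptor and its targets, 2 rose there, Sgk1 by 0.60 (adjusted p = 0.00703) and Zbtb16 by 0.87 (adjusted p = 0.0286), and all 9 differences were positive. In KO against WT mice over both treatments 1.37% of all probesets rose. Of the same 9 genes 2 rose there, Fkbp5 by 0.64 and Per1 by 1.17, again with all 9 positive. Per1 is also a clock gene. Of 12 signalling and transcription factor genes, 0 passed between KO and HZ saline mice and 2 rose in KO against WT mice over both treatments, Nfkbiz, an NF-kappaB cofactor, by 0.24 (adjusted p = 0.00533) and Socs3, a feedback inhibitor of cytokine signalling, by 0.25 (adjusted p = 0.013). Of 7 receptors of the member proteins, 1 fell in HZ against WT saline mice, the innate immune receptor Tlr4, by 0.39 (adjusted p = 0.0361), as did 0.18% of all probesets. Of 8 negative acute phase genes, whose proteins fall in inflammation, 0 passed in HZ against WT or KO against HZ saline mice. Of all probesets 0.304% and 1.39% passed there. Serpina6, the corticosteroid binding globulin of plasma, rose by 0.50 in KO against WT mice (adjusted p = 1.81e-06).

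Over both treatments, KO against HZ mice showed 0.661% of all probesets higher. Serpina6 rose there by 0.29 (adjusted p = 0.00925), Il22ra1 by 0.65 (adjusted p = 0.0105), Sgk1 by 0.37 (adjusted p = 0.0248) and Lpin1, a phosphatidate phosphatase, by 0.75 (adjusted p = 0.0449). With VPA, as the mean over genotypes, 4.6% of all probesets fell. Among the signalling genes Stat3 rose by 0.19 (adjusted p = 0.00515) and Cebpa, which encodes a C/EBP factor, fell by 0.32 (adjusted p = 1.93e-05). Of the cytokine genes Il1a rose by 0.37 and Il10rb by 0.22, while Il6ra, the interleukin-6 receptor, fell by 0.31 (adjusted p = 0.023). Of the glucocorticoid genes Per1 fell by 1.17, Lpin1 by 0.53 and Tat by 0.18, and Sgk1 rose by 0.26. Of the receptors Fcgr1 rose by 0.18 and Tlr4 by 0.19, and Serpina6 fell by 0.20.

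The 3 genes most like each member over the 48 mice, once group means were subtracted, were sought among 21779 other probesets with 1 symbol. For Hp they were Hpx, which encodes the haem carrier hemopexin (r = 0.799), Fgl1, a secreted liver protein (r = 0.742), and Tmem176b (r = 0.660). For Saa1 they were Fgl1 (r = 0.670), the complement gene C4b (r = 0.667) and Prg4, which encodes lubricin (r = 0.643). For Saa2 they were Prg4 (r = 0.737), C4b (r = 0.684) and Hc, the gene of complement component C5 (r = 0.610). Orm2 was also nearest to Prg4 (r = 0.774), followed by Itih4 (r = 0.652) and Slc13a3 (r = 0.617). For Lcn2 the nearest were Serpina3n (r = 0.652), Lrg1 (r = 0.641) and Itih4 (r = 0.626), all of them in the list of further acute phase genes. For Orm1 they were Hacd2 (r = 0.750), Itih4 (r = 0.745) and Lrg1 (r = 0.743). For Saa3 they were the chemokine gene Cxcl9 (r = 0.627), Prkcb (r = 0.569) and Csrp3 (r = 0.545). For Saa4 they were Washc3 (r = 0.740), Nat8f2 (r = 0.729) and Ttpal (r = 0.727), and for Orm3 Polr3gl (r = 0.606), Slc46a3 (r = 0.576) and Tas2r135 (r = 0.572). Those of Apcs, Olfr16 (r = 0.739), Ifi202b (r = 0.692) and Catspere2 (r = 0.635), all lie on its own chromosome 1, at distances of 0.0628, 1.07 and 5.09 Mb. These values describe the 48 livers and carry no test.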

How the data were processed

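Total RNA from the liver of each mouse was hybridized to an Affymetrix Mouse Gene 1.0 ST array. The authors made the deposited log2 values with RMA (Affymetrix Expression Console, version 1.1.2800.28061). RMA corrects background, gives all arrays the same distribution and summarizes the probes of a probeset. Quantile normalization would hide a change common to all genes. Groups and replicate numbers came from the sample titles. No array was left out. The precision of a group mean is set by its 8 arrays.

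Means of the 6 groups were fitted to all 35556 probesets of the 48 arrays with limma 3.58.1 in R 4.3.3 and moderated by eBayes, leaving 42 residual degrees of freedom. Benjamini-Hochberg adjustment ran over all probesets. This follows the two-way design of the study, and a test was called at an adjusted p under 0.05. Differences are on the log2 scale. Exact permutation tests were two-sided and were run on every probeset, to give the share that passed. Promoter sequences and positions were those of RefSeq GRCm38.p6, aligned with Biopython 1.88. The fits were tested on simulated data.

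By rule, all 10 members were named, together with up to 4 genes of each list that passed in a comparison, by smallest p, and the 3 nearest genes of each member. The 14 lists hold 131 genes, of which 118 were measured, each through the probeset of highest mean. They cover further positive and negative acute phase genes, cytokines, signalling factors, glucocorticoid targets, receptors of the members, hepatocytes, neutrophils, Kupffer cells, monocytes, lymphocytes, adipocytes, pancreas and erythroid cells. Members and lists were chosen with earlier results of these data known. Genes of the lists named without a call were chosen after their values were seen.

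Replicate numbers were not taken to pair mice. The residuals of same-numbered arrays had a mean correlation of 0.055, against -0.0078 for other pairs. The rule used here took the numbers as pairs only if all 120 such correlations exceeded 0.1, and 53 did. That rule is strict. Whether mice of the same number shared a litter, day or batch is not given in the titles and was not tested. Alternatives were array weights, trend and robust eBayes, no moderation, median centring, filters on symbols and dim probesets (group mean of at least 5), the groups compared alone, a replicate block, the clock phase index as a covariate, an unadjusted p under 0.001 (the study applied this limit to genotype only together with a fold change and used another for the interaction), and leaving out each array.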

Additional observations from a re-analysis of the deposited data

Results flagged for a closer look

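Saa2 in WT VPA replicate 5 stood far above the other mice of its group, with a log2 value of 12.51 against 9.54 for the next mouse. The gap was 0.56 of the range of the group, above Dixon's 95% critical value for 8 mice. It was the only such value among the 60 sets of a gene and a group tested, where chance gives about 1 in 20. In the same mouse Saa1 was at 9.78, Lcn2 at 11.92 and Orm2 at 11.27, each the highest of the WT VPA group.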

How the results depend on the processing

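Most results kept their direction and their side of the threshold. Of the counts of called genes under other settings, leaving out single arrays apart, 152 stayed within 1.5 times the reported count. The other 16 did not. Most reported counts were 0, and such a count stayed only where it was 0 again. The count for HZ against WT in saline mice was the least stable. It was 1 as reported, 0 without moderation, with arrays centred on their median, with the groups compared alone and with the clock phase index, 2 with probesets of 1 symbol, with a group mean of at least 5 and with the replicate number as a block, 4 at an unadjusted p under 0.001 and 5 by the exact permutation test. Left-out arrays moved it between 0 and 2. The call of Lcn2 was lost (adjusted p up to 0.131) without any 1 of 24 arrays, namely each WT saline array, each HZ saline array except replicate 2, KO saline replicate 3, WT VPA replicates 3 and 4, HZ VPA replicate 3 and KO VPA replicates 1, 2, 5, 6 and 8. Saa1 passed without HZ saline replicate 2, WT VPA replicate 5 or 7, or HZ VPA replicate 4, 7 or 8. The count for KO against HZ in saline mice was 4 as reported, 1 with the clock phase index and between 2 and 5 with arrays left out. It was 2 without KO saline replicate 4, where Saa4 (adjusted p = 0.0574) and Lcn2 (adjusted p = 0.0503) were lost, and Lcn2 was lost without HZ saline replicate 8 (adjusted p = 0.0545). Orm2 passed there without HZ saline replicate 2, KO saline replicate 7, HZ VPA replicate 4, 6 or 8, or KO VPA replicate 1.

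At an unadjusted p under 0.001 the counts were 1 for HZ against WT over both treatments and 1 for KO against HZ in VPA mice, where none passed the adjusted test. By the exact permutation test they were 1 for VPA in WT mice, 2 for KO against WT in VPA mice and 4 for KO against HZ in VPA mice. With array weights Apcs passed for VPA in HZ mice (0.73, adjusted p = 0.0413), a count of 1. Directions turned only for differences that were not called. With the clock phase index the VPA differences over genotypes became 0.83 for Saa1, 0.78 for Saa2 and 0.060 for Saa4, those within HZ mice became 0.45 for Saa1 and 0.77 for Lcn2, and Apcs became -0.035 in KO against WT and 0.088 in KO against HZ saline mice. With array weights Saa2 was at 0.020 for VPA. Orm3 was at 0.077 for KO against HZ over both treatments. With arrays left out, the VPA difference ran from -0.21 to 0.090 for Saa2 and from -0.0029 to 0.10 for Orm3, and that of Apcs in KO against HZ saline mice from -0.071 to 0.075. The cause of these shifts was not tested. With the replicate block the differences of all members were as reported, Saa1 passed in HZ against WT saline mice (2.42, adjusted p = 0.0463), and no other call changed.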

Other observations

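Apcs, the serum amyloid P gene of chromosome 1, and its near neighbour Olfr16, annotated as an olfactory receptor gene, were high in the same 2 mice. In HZ VPA replicate 4 Apcs was at 12.94 and Olfr16 at 8.32, and in HZ VPA replicate 8 they were at 12.80 and 8.00. The next highest mouse for Apcs was WT VPA replicate 6, at 12.00 with Olfr16 at 6.67. Hp was at 13.86 and 13.83 in the same 2 HZ VPA mice, which is also where its highest values lay.

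With VPA, as the mean over genotypes, 6 of 12 Kupffer cell genes rose, where 4.01% of all probesets did. By smallest p these were Csf1r, the receptor of macrophage colony stimulating factor (0.32, adjusted p = 0.0118 from limma), Cd5l (0.41, adjusted p = 0.0149), Cd68 (0.41, adjusted p = 0.0179) and the complement chain C1qc (0.39, adjusted p = 0.0203). Within HZ mice 8 of the 12 rose with VPA, where 4.72% of all probesets did, with Adgre1, the macrophage marker F4/80, at 0.99, Cd5l at 0.86, Csf1r at 0.62 and C1qc at 0.79. Within HZ mice 5 of the 18 further positive acute phase genes also rose with VPA, led by Fga at 0.52, Fgg at 0.22, Cp at 0.18 and Itih3 at 0.39. In the same comparison 5.76% of all probesets fell at an adjusted p under 0.05. These included Serpina6 (-0.36), Cebpa (-0.41), Cebpb (-0.40), Osm (-0.32), Il6ra (-0.46), Per1 (-1.94), Lpin1 (-0.86), Cyp2e1 (-0.12), Ly6g (-0.28) and Slc4a1 (-0.35). Tlr4 (0.51), Fcgr1 (0.26), Il1a (0.65), Il10rb (0.40), Stat3 (0.27), Sgk1 (0.50) and Csf3r (0.29) were higher at the same threshold. For these single genes no count was set against the 4.72% of all probesets that rose or the 5.76% that fell.

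The 4 monocyte, 6 lymphocyte, 4 adipocyte and 4 pancreas genes measured gave 0 calls with VPA and in KO against WT mice over both treatments. They also gave 0 calls in HZ against WT and in KO against HZ saline mice. These comparisons called 8.61%, 2.94%, 0.304% and 1.39% of all probesets. Of 2 erythroid genes, Alas2, which makes haem in red cell precursors, fell in KO against HZ saline mice, as did 0.692% of all probesets. It fell by 1.54 (adjusted p = 0.000216 from limma). Over both treatments Alas2 fell by 1.17 in KO against HZ mice (0.779% of all probesets) and by 1.24 in KO against WT mice (1.57%). Slc4a1 fell by 0.21 with VPA. Within saline mice Alas2 fell by 1.55 in KO against WT, where Serpina6 rose by 0.48 and Fkbp5 by 0.69. Within VPA mice Mt1 rose by 1.51 and Serpina6 by 0.53 in KO against WT, and Serpina6 rose by 0.42 in KO against HZ. Of 7 hepatocyte genes, Cyp2e1 fell by 0.08 with VPA (adjusted p = 0.00314). Of 13 neutrophil genes, Retnlg rose by 0.16 and Ly6g fell by 0.18 with VPA (adjusted p = 0.0343 and adjusted p = 0.0198 from limma). Group means of both genes lay between 5.12 and 5.73. With VPA 4.01% of all probesets rose and 4.6% fell.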
